A study of Mus musculus with 12 samples.

Results

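The genes described here were 8 transcription factors of the interferon regulatory factor (IRF) and signal transducer and activator of transcription (STAT) families, namely Irf1, Irf2, Irf5, Irf7, Irf8, Irf9, Stat2 and Stat3. They were a given list, found by mouse symbol through the Entrez Gene IDs of the expression table, and all 8 were among its 17571 genes. Expression was measured by RNA sequencing in L929, an established mouse fibroblast line from subcutaneous connective tissue of a C3H/An animal, in 12 libraries of 4 groups with 3 libraries each. The mock group received only DMSO, the solvent. The pEGFP-N1 group received DMSO and was transfected by lipid reagent with pEGFP-N1, a plasmid that encodes a green fluorescent protein. The BX795 group received BX795, an inhibitor of the kinase TBK1, at 0.5 µM, and the last group received BX795 followed by the plasmid. Pretreatment lasted 1 h and cells were collected at 6 h in all groups. The labels' shared treatment text names the transfection for every sample, so that only the agent label separates the plasmid groups from the others. The questions were which of these factors differed after plasmid DNA, and which of those differences were smaller with TBK1 inhibited.

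IRFs bind a DNA element called the interferon-stimulated response element (ISRE), and STATs bind a palindrome called the gamma-activated site (GAS). When type I interferon binds its receptor, the kinases JAK1 and TYK2 phosphorylate STAT proteins, and STAT2 and IRF9 enter a complex named ISGF3 that binds the ISRE of antiviral genes. Upstream, cytosolic DNA is sensed by cGAS and STING, which act through TBK1 to start interferon transcription, and IRF7 amplifies that transcription once interferon has induced it. IRF1 is induced by several inputs, among them NF-κB, while IRF2 occupies many of the same elements as IRF1 and can oppose it. IRF8 belongs mainly to myeloid and lymphoid cells. STAT3 carries the signal of the interleukin-6 family of cytokines.

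The promoter windows of Irf1, Stat2 and Irf7, whose levels differ between libraries below, are shown first, with Irf2 as an expressed gene whose level hardly moved. The levels of Irf9 also separate below, but its windows are not shown. Each window runs from 250 bases before to 50 bases after the start site in RefSeq on GRCm38.p6 and is written 5′ to 3′ on the strand of the gene. Windows were present for all 8 genes, with 2 each for Irf1, Irf8 and Irf9. The second windows of Irf1 and Irf8 held no match to any motif searched, and the first of Irf1 is shown. Capitals mark every match, on either strand, to the ISRE core (GAAA and GAAA with any 2 bases between them) or to the GAS letters (TTC and GAA with any 3 bases between them). The positions are chr11:53769764-53770063 (plus strand) for Irf1, chr8:46739495-46739794 (plus) for Irf2, chr10:128270248-128270547 (plus) for Stat2 and chr7:141266375-141266674 (minus) for Irf7.
Irf1: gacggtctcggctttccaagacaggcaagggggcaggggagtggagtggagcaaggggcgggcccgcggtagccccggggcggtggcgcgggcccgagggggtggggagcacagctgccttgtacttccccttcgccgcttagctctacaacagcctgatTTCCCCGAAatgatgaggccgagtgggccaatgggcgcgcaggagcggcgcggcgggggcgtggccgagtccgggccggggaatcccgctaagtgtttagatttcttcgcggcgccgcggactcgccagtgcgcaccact
Irf2: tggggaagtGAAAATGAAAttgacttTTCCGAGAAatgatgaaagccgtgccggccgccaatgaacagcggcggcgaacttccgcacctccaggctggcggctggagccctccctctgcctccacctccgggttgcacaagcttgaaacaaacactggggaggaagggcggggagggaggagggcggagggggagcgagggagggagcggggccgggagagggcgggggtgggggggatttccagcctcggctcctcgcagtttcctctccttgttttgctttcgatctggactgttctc
Stat2: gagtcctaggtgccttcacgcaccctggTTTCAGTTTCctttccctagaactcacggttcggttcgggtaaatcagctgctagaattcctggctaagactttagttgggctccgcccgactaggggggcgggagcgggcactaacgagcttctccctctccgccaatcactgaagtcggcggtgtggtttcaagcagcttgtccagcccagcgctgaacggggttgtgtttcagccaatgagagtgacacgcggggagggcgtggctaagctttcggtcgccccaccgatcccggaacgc
Irf7: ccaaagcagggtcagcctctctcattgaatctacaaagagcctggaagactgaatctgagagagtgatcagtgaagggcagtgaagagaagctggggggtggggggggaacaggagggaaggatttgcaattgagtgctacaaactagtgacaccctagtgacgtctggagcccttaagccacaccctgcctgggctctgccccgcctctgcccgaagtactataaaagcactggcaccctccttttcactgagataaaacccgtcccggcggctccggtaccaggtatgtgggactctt

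Stat2 held 1 ISRE core, on the minus strand and beginning 222 bases before the start. Irf2 held 1 ISRE core 241 bases before its start and 1 GAS 224 bases before it. Irf1 held 1 GAS 90 bases before its start, and 13 bases before the start it also held GGGGAATCCC, a match on both strands to the κB letters (GGG and CC with any 5 bases between them) that NF-κB sites share. The κB letters do not set Irf1 apart, since Irf2 held GGGGATTTCC 17 bases before its start and every other member except Stat3 held at least 1 match. Irf8 held 2 GAS matches, 171 and 153 bases before its start, the most of the 8 genes. The Irf7 window and those of Irf9, Irf5 and Stat3 held neither an ISRE core nor a GAS, which says only that these letters are not in those windows. Of 32851 windows in the RefSeq table, 3.44% held an ISRE core, 8.30% a GAS and 50.8% the κB letters, so the last match is common. These are letter matches and were not tested as binding sites.

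Some libraries stood apart from their labelled group, which bears on every group value below. Isg15, a target of ISGF3, was at 129 to 152 FPKM (fragments per kilobase of transcript, scaled to the mapped fragments of a library) in the libraries labelled pEGFP-N1 replicates 1 and 3 and BX795 plus pEGFP-N1 replicate 1, and at 1.26 to 5.15 in the other 9. Lif, a cytokine of the interleukin-6 family, ran the other way, with 2.14 to 2.65 FPKM in those 3 libraries and mock and 7.68 to 11.96 in the other 6. The library labelled pEGFP-N1 replicate 2 therefore lay with the BX795 libraries in both genes, and the one labelled BX795 plus pEGFP-N1 replicate 1 lay with pEGFP-N1 replicates 1 and 3. Relb, an NF-κB subunit, and Socs3, a feedback inhibitor of cytokine receptors, placed the 2 libraries in the same way, at 15.61 and 9.25 FPKM for Relb and at 10.6 and 16.13 for Socs3 in that order. Whether the labels of these 2 libraries were exchanged was not tested, and every group value below follows the labels. The 3 libraries with high Isg15 are called interferon-high here for that value alone, so their levels are given one by one, with no mean and no test. Summed FPKM was 467348 to 513761 per library and 2806 to 3239 genes were listed at 0. FPKM keeps no read depth, so counting error is unknown. The labels do not say that replicates were separate cultures, so p-values measure only the spread between these samples. In bulk RNA, fewer cells expressing a gene and less RNA per cell cannot be told apart.

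The cell label was checked on markers. Fibroblast markers found in the table (7 of 8) summed to 6715 to 6953 FPKM in mock and 5569 to 7193 in the other libraries, nearly all of it S100a4 and Vim, although Thy1 did not exceed 0.13. The interferon-high libraries were the 3 lowest for 4 of the 6 tested fibroblast markers. Pdgfrb, a growth factor receptor, was at 20.56 to 22.23 FPKM there and at 30.6 to 41.16 in the other 9, and Col1a2, a collagen chain, at 26.5 to 27.57 and at 34.88 to 41.68. Col1a1 was at 48.1 to 53.56 and 55.89 to 78.41, and Fn1 at 6.05 to 6.49 and 6.59 to 9.19. The part of these levels in the results below was not tested. Neither the 6 tested fibroblast markers nor the 1 tested leukocyte marker held a limma call with pEGFP-N1 or BX795, and 1 fibroblast marker had an unadjusted p under 0.05 with pEGFP-N1 (4.69% of genes). The 9 leukocyte markers summed to 112 to 138 FPKM, of which Cd68 alone made 111 to 138, and Ptprc, the pan-leukocyte marker, did not exceed 0.01.

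The order of mock levels in FPKM, which is per transcript length, was Stat3, Irf2, Irf1, Stat2, Irf9, Irf7, Irf5 and Irf8. Mock means were 24.7 ± 0.732 (SD, n = 3) for Stat3, 13.6 ± 0.624 for Irf2, 13.5 ± 1.22 for Irf1, 5.51 ± 0.376 for Stat2, 3.69 ± 0.192 for Irf9, 0.737 ± 0.0808 for Irf7 and 0.43 ± 0.0854 for Irf5. Irf2 and Irf1 overlapped in mock and were the only neighbours in that order that did. Stat3 stood above 80.2% of the genes in the table and Irf7 above 40.9%. The plot of FPKM by library shows the 8 genes side by side.

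**Figure D1:**
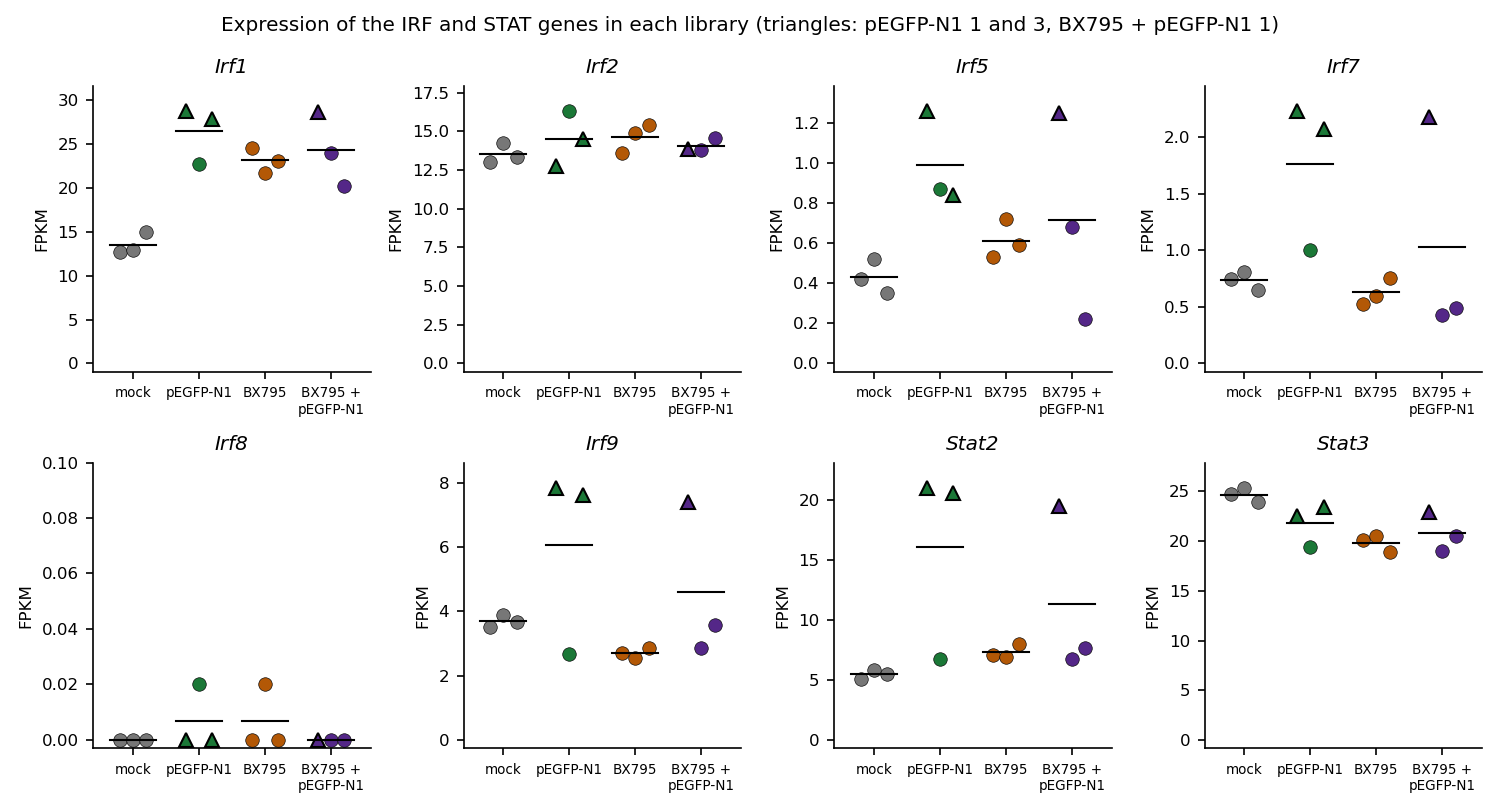
FPKM of the 8 genes (vertical axes, linear, 1 panel per gene) in each of the 12 libraries, grouped by label along the horizontal axes. Each point is 1 library, each line a group mean, and triangles mark pEGFP-N1 replicates 1 and 3 and BX795 plus pEGFP-N1 replicate 1, which stand above the other 9 libraries for Irf1, Irf7, Irf9 and Stat2.

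Irf1 (chr11:53770014-53778374, plus strand, GRCm38) encodes an activator of antiviral and antigen-presentation genes. The mock libraries held 12.7, 12.94 and 14.92 FPKM, and the pEGFP-N1 libraries 28.69, 22.67 and 27.81. BX795 libraries held 24.56, 21.7 and 23.01, and those given BX795 and plasmid 28.58, 23.92 and 20.19. All 9 libraries outside mock lay above all mock libraries, and among those 9 the 3 interferon-high ones were the highest. The interferon-high libraries were at 2.06 to 2.12 times the mock mean and the other 6 at 1.49 to 1.82 times. Irf1 rose with pEGFP-N1 by 0.91 on the log2(FPKM + 1) scale (SE 0.12, limma adjusted p = 0.0265), and was the 1 member called. That call was lost without any 1 mock library or without pEGFP-N1 replicate 1 or 3 (limma adjusted p 0.0883 to 0.242), and held without pEGFP-N1 replicate 2 (log2 fold change 1.01, limma adjusted p = 0.00786). It was also lost in a limma fit of only the mock and pEGFP-N1 libraries (adjusted p = 0.148) and with no filter on low values (adjusted p = 0.0702). Against mock, BX795 alone gave 0.73 (SE 0.12, limma adjusted p = 0.0755), which missed the threshold. In a limma fit of only the mock and BX795 libraries the same difference had an adjusted p of 0.000299. The plasmid difference in the presence of BX795 was 0.06, and ran from −0.0664 to 0.17 with 1 library left out. This plasmid difference was 0.86 smaller than without BX795 (difference −0.86, SE 0.17, limma unadjusted p = 0.000396, limma adjusted p = 0.824).

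Irf2 (chr8:46739732-46847458, plus strand), the relative that can oppose Irf1, was the steadiest expressed member. The mock libraries read 13.04, 14.25 and 13.38 FPKM and the pEGFP-N1 libraries 12.75, 16.31 and 14.51. The values under BX795 alone were 13.62, 14.91 and 15.4, and under BX795 and plasmid 13.84, 13.82 and 14.55. The range of each group overlapped that of mock, and the interferon-high libraries lay on both sides of the mock mean. Its 4 differences between groups ran from −0.05 to 0.10 on the log2 scale, and that with pEGFP-N1, 0.09, was 0.17 without pEGFP-N1 replicate 1 and 0.0055 without replicate 2. Its coefficient of variation over the 12 libraries was 7.15%, against 26.1% for Irf1. The 1 window here with both an ISRE core and a GAS thus belonged to the gene with the smallest spread.

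Stat2 (chr10:128270559-128292849, plus strand) encodes the ISGF3 subunit with the transactivating domain. Mock libraries had 5.12, 5.87 and 5.55 FPKM, whereas the plasmid-only libraries had 21.06, 6.79 and 20.61. Under BX795 alone the values were 7.06, 6.9 and 8.05, and the combined treatment gave 19.54, 6.75 and 7.65. The levels formed 3 separate ranges, with mock lowest, 6 libraries at 1.22 to 1.46 times the mock mean, and the interferon-high libraries at 3.54 to 3.82 times. With pEGFP-N1 the log2 fold change was 1.25 (SE 0.40, limma adjusted p = 0.699), so the spread between replicates was too large for a call even though no pEGFP-N1 library overlapped mock. Without pEGFP-N1 replicate 2 it was 1.75 (limma adjusted p = 0.0512).

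Irf9 (chr14:55603571-55610030, plus strand) encodes the DNA-binding subunit of ISGF3. Levels of 3.52, 3.9 and 3.66 FPKM were found in mock, and 7.85, 2.68 and 7.63 in the plasmid-only libraries. BX795 alone gave 2.72, 2.55 and 2.87, and BX795 before the plasmid 7.42, 2.85 and 3.58. The interferon-high libraries lay at 2.01 to 2.13 times the mock mean. The 3 BX795 libraries lay below all mock libraries, and the 6 libraries outside mock and the interferon-high set were between 0.690 and 0.969 times the mock mean. The difference with pEGFP-N1 was 0.48 (SE 0.32, limma unadjusted p = 0.164), with 0.90 when pEGFP-N1 replicate 2 was left out, 0.26 without replicate 1 and 0.28 without replicate 3. It was −0.34 with BX795 (limma adjusted p = 0.620), and neither difference passed the threshold. In the fit of only mock and BX795 the latter had a limma adjusted p of 0.0120.

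The 2 ISGF3 subunits thus did not keep one ratio. Stat2 over Irf9 in FPKM was 1.45 to 1.52 in mock, 2.63 to 2.70 in the interferon-high libraries and 2.14 to 2.80 in the other 6. The mock libraries had the 3 lowest ratios, and the interferon-high ones lay inside the range of the other 6. Irf1 over Irf2 gave 0.908 to 1.12 in mock, 1.39 to 1.80 in the other 6 and 1.92 to 2.25 in the interferon-high libraries, so there the 3 ranges were apart. Stat2 over Stat3 was 0.207 to 0.232, 0.337 to 0.425 and 0.853 to 0.936 in the same order. These ratios are descriptions, with no test.

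**Figure D2:**
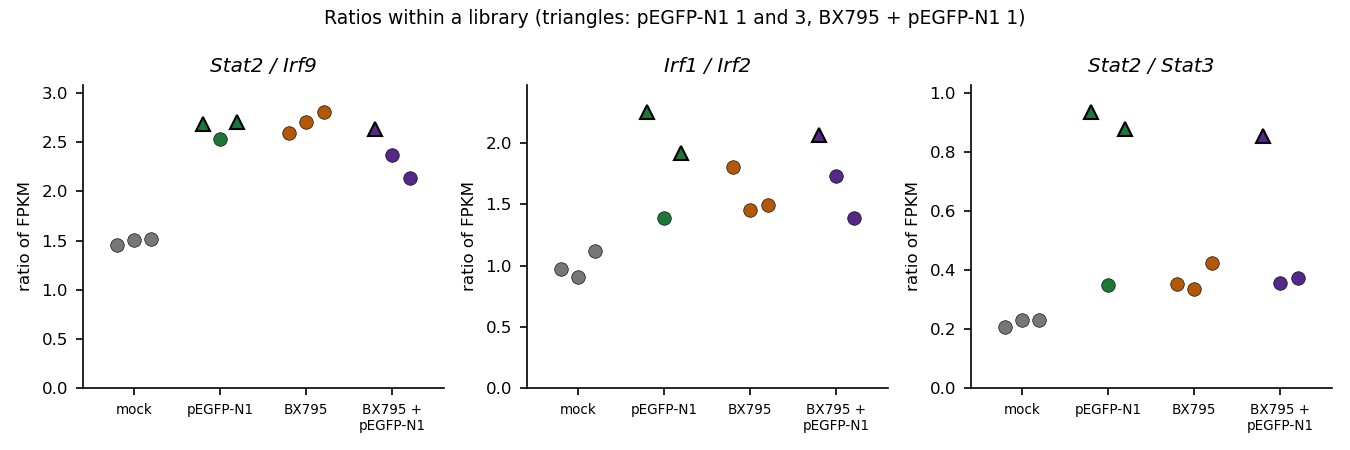
Ratio of FPKM within a library (vertical axes, from 0) for Stat2 over Irf9, Irf1 over Irf2 and Stat2 over Stat3, by labelled group. Each point is 1 library and triangles mark the interferon-high ones, which stand apart for Stat2 over Stat3 but not for Stat2 over Irf9, where the mock libraries stand apart at 1.45 to 1.52.

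Irf7 (chr7:141262706-141266481, minus strand), the amplifier of interferon transcription, was low throughout. Mock libraries had 0.75, 0.81 and 0.65 FPKM, and the plasmid-only libraries 2.23, 1 and 2.07. The BX795 libraries had 0.53, 0.6 and 0.76, and the combined group 2.18, 0.43 and 0.49. The interferon-high libraries were at 2.81 to 3.03 times the mock mean and the other 6 at 0.584 to 1.36 times, on both sides of mock. With pEGFP-N1 the log2 fold change was 0.64 (SE 0.27, limma adjusted p = 0.995). Irf7 entered the test only because the interferon-high libraries lifted it past the filter of 1 FPKM in 3 libraries, and at this level a change on the log2(FPKM + 1) scale understates the change in FPKM. On log2(FPKM + 0.1) the difference with pEGFP-N1 was 1.09. That of BX795 plus pEGFP-N1 minus pEGFP-N1 was −0.99 there, in place of −0.52, and neither was called by limma.

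Irf5 (chr6:29526625-29541871, plus strand), which acts downstream of Toll-like receptors, fell under that filter. Values of 0.42, 0.52 and 0.35 FPKM in mock stood against 1.26, 0.87 and 0.84 in the plasmid-only libraries. BX795 libraries had 0.53, 0.72 and 0.59, and the combined group 1.25, 0.68 and 0.22. The pEGFP-N1 and the BX795 libraries each lay above all mock libraries (two-sided exact permutation p = 0.1 for each, the smallest that 3 against 3 allow). Among the genes past the filter, 5.52% and 23.6% lay above mock in this way, in that order. Of its exonic bases, 14.1% overlap Tnpo3 on the opposite strand, and counting used RSEM's default, which ignores strand, so reads of the 2 genes cannot be told apart there. Irf8 (chr8:120736358-120756694, plus strand) was listed at 0 in 10 libraries and at 0.02 FPKM in pEGFP-N1 replicate 2 and BX795 replicate 2, so no fold change is given for it.

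Stat3 (chr11:100885098-100939540, minus strand) was the most abundant member and the 1 that lay lower outside mock. Mock libraries had 24.72, 25.36 and 23.9 FPKM, and the plasmid-only libraries 22.51, 19.36 and 23.46. BX795 alone gave 20.06, 20.5 and 18.94, and the combined treatment 22.9, 18.96 and 20.54. All 9 libraries outside mock were below all mock libraries, with the interferon-high ones closest to mock at 0.913 to 0.951 times its mean and the other 6 at 0.768 to 0.833 times. With BX795 the log2 fold change was −0.30 (SE 0.08, 95% interval −0.49 to −0.12, limma adjusted p = 0.219), and in the fit of only mock and BX795 its limma adjusted p was 0.00427. With pEGFP-N1 it was −0.18 (limma unadjusted p = 0.0607), and −0.097 without pEGFP-N1 replicate 2.

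**Figure D3:**
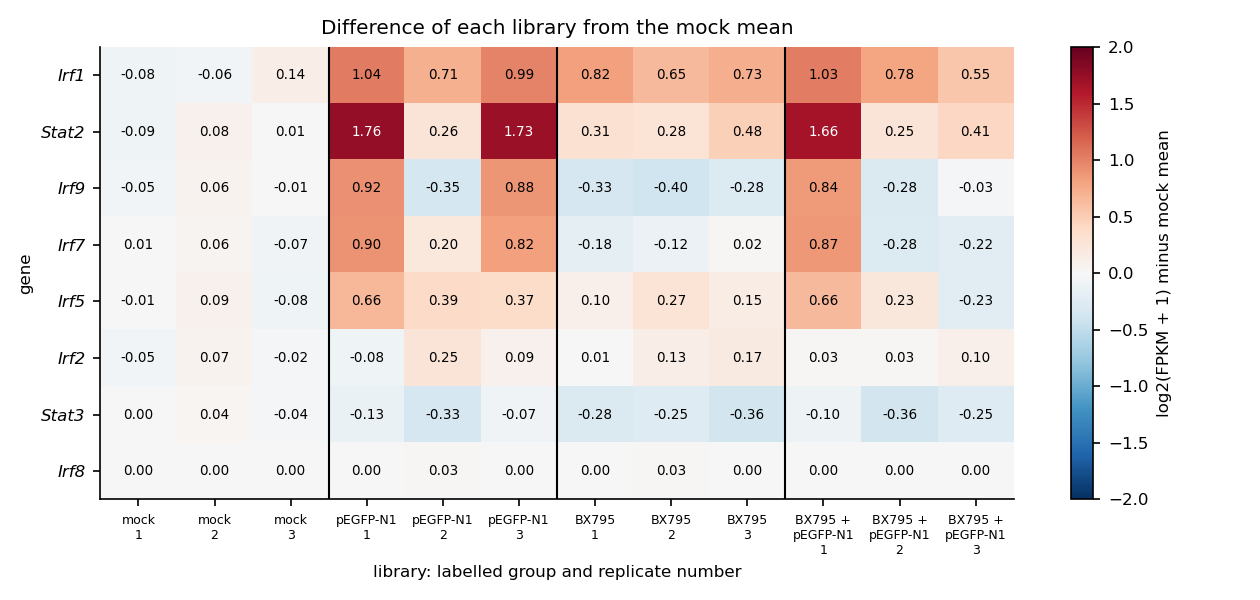
Difference of log2(FPKM + 1) from the mock mean for each gene (rows) in each library (columns, by labelled group and replicate number), as color and printed value. Irf1 is above 0.5 in all 9 libraries outside mock, Irf9 and Irf7 are near 0.9 in 3 of them, and Stat3 is below 0 in all 9.

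The members were then counted in each comparison, with the share of all 10412 tested genes that met the same rule beside them. For pEGFP-N1 minus mock, 1 of the 6 tested members (Irf1) passed an adjusted p of 0.05, against 0.0672% of genes (7 in all), while Irf7, whose place in the test came from its high libraries, was left out of the further counts against mock. Of the other 5 tested members, 2 (Irf1 and Stat2) passed unadjusted, against 4.69% of genes. All pEGFP-N1 libraries were above all mock libraries for the same 2 members (5.52% of genes) and below them for 1 (Stat3; 7.41%). The median log2 fold change of these 5 was 0.48, which is the value of Irf9, against −0.00 over all tested genes. That of Irf9 ran from 0.26 to 0.90 with 1 library left out.

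For BX795 minus mock, none of the same 5 passed the adjusted threshold in the limma fit of all groups, against 0.0672% of genes, while 2 (Irf1 and Stat3) passed unadjusted, against 13.8%. The BX795 libraries were above mock for Irf1 and Stat2 (23.6% of genes) and below it for Irf9 and Stat3 (16.2%), which is 2 of the 5 members each way. In the limma fit of only these 2 groups, which leaves out the wide spread of the plasmid groups, 4 members passed (Irf1 and Stat2 higher, Irf9 and Stat3 lower), and 2150 genes or 20.6% of all did.

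For BX795 plus pEGFP-N1 minus pEGFP-N1, no member passed an adjusted p of 0.05 by limma (0% of genes) or an unadjusted one (1.59%), and none was apart upward (1.39%) or downward (1.41%). The differences were −0.52 for Irf7, −0.48 for Stat2, −0.31 for Irf9 and −0.12 for Irf1. Without BX795 plus pEGFP-N1 replicate 1 they were −0.89, −0.92, −0.64 and −0.25, and without pEGFP-N1 replicate 2 they were −0.73, −0.97, −0.72 and −0.23. Leaving out any 1 of the other 4 libraries brought them nearer to 0, to −0.31 to −0.43 for Irf7, −0.22 to −0.30 for Stat2 and −0.08 to −0.20 for Irf9. Irf1 then ran from −0.0056 without BX795 plus pEGFP-N1 replicate 3 to −0.12. No member passed the adjusted threshold with any of these libraries left out. Unadjusted by limma, Irf7, Irf9 and Stat2 passed without pEGFP-N1 replicate 2, as did 1268 of the 10412 genes. Irf7 and Stat2 passed without BX795 plus pEGFP-N1 replicate 1 (1710 genes), and no member without any of the other 4. For BX795 plus pEGFP-N1 minus BX795, again none passed by limma (adjusted 0%, unadjusted 5.56%) and none was apart upward (4%) or downward (6.66%). Stat2 differed there by 0.42, and by −0.02 without BX795 plus pEGFP-N1 replicate 1, while Irf7 turned from 0.22 to −0.16 and Irf9 went from 0.51 to 0.18. In the difference between the plasmid effects with and without BX795, no member passed the adjusted threshold (0% of genes) and Irf1 passed unadjusted (3.91%). The comparisons share control libraries and are therefore not independent.

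**Figure D4:**
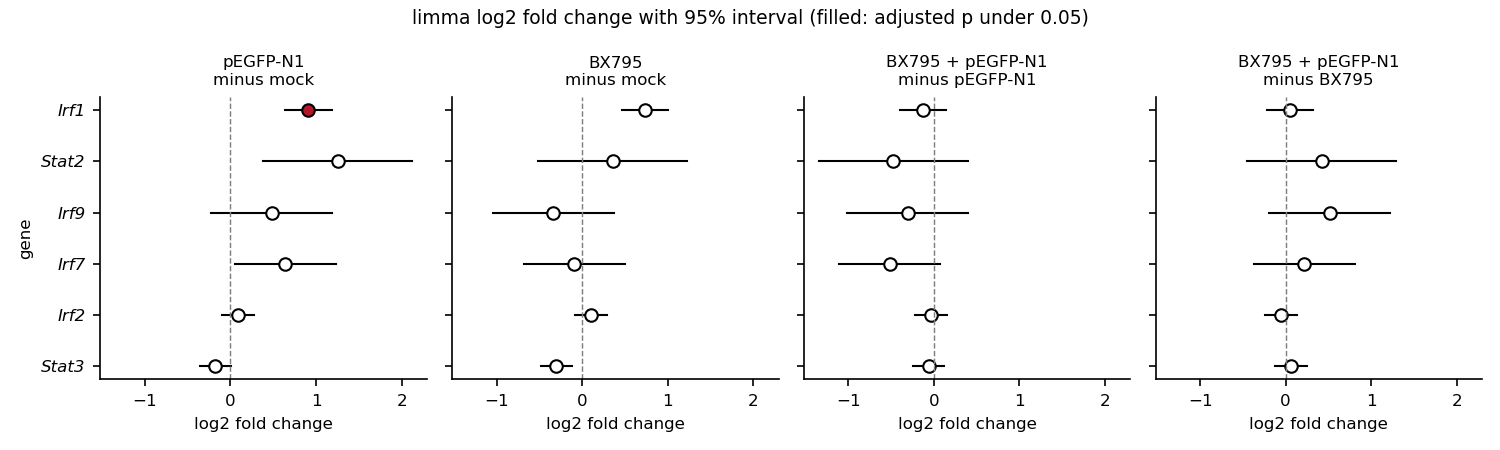
Log2 fold change of FPKM + 1 from limma (horizontal axes) with its 95% interval for the 6 tested genes in the 4 comparisons between groups, 3 libraries a group. The filled point, Irf1 for pEGFP-N1 minus mock at 0.91, is the one with an adjusted p under 0.05, and intervals are widest for Stat2 and Irf9.

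Read across libraries, the members fell into distinct orders, given as descriptions. The 3 interferon-high libraries were the 3 highest for Irf1, Irf7, Irf9 and Stat2, as they were for 9.99% of tested genes, although Irf7 was tested only through those libraries. All libraries outside mock were above mock for Irf1 and Stat2 (1.93% of genes) and below it for Stat3 (2.23%). Only Irf1 and Stat2 among the members met both upward orders, as did 30 genes or 0.288% of those tested. Stat2 alone had its interferon-high libraries at least 1 log2 unit above the other 9, which held for 0.432% of tested genes. Irf1 and Stat2 thus lay above mock also in all 6 treated libraries with low Isg15, whereas Irf9 lay within or below the mock range there and Irf7 lay on both sides.

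For each tested member with a range of at least 0.5 log2 units, the nearest genes over the 12 libraries were found from the root mean square difference in log2(FPKM + 1), each gene centered on its mock mean. The nearest to Irf1 was Tapbp, which encodes tapasin of the peptide-loading complex, at 0.0885, followed by Egr1, an immediate early transcription factor, at 0.194 and Il6 at 0.218. Tapbp was at 38.8 to 42 FPKM in mock, at 79.61 to 87.02 in the interferon-high libraries and at 64.39 to 73.8 in the other 6. The nearest to Stat2 were Sp140 (0.167), Parp14 (0.183) and Znfx1 (0.195). Irf7 was nearest to Pstpip1 (0.0920), Oas3 (0.139) and Gm13201 (0.148), and the nearest to Irf9 were Apobr (0.166) and Nedd4l (0.172).

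**Figure D5:**
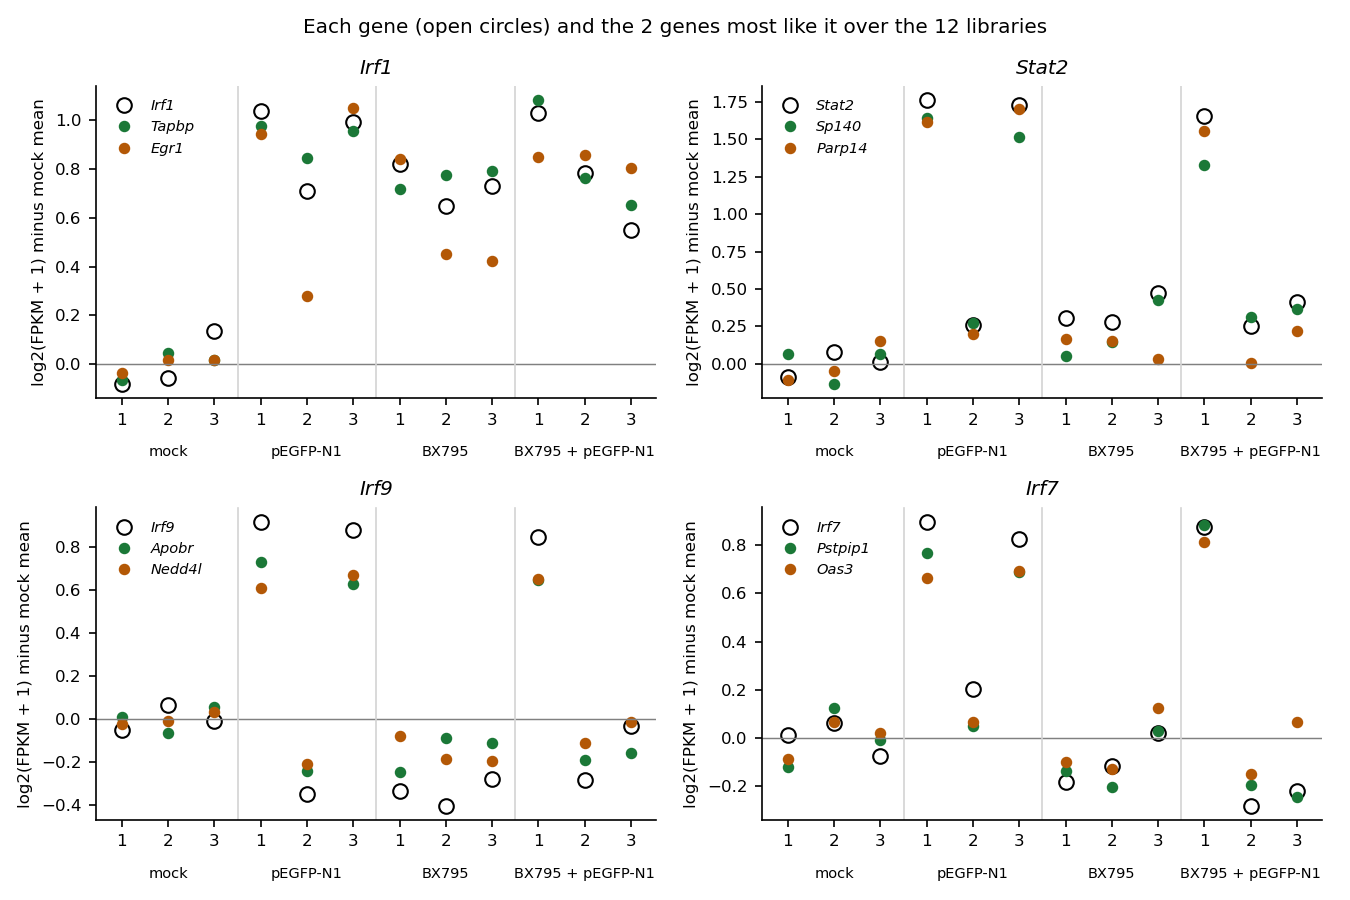
Difference of log2(FPKM + 1) from the mock mean (vertical axes) in the 12 libraries (horizontal axes, by labelled group and replicate number) for Irf1, Stat2, Irf9 and Irf7 as open circles and the 2 genes nearest to each as filled points. Tapbp follows Irf1 most closely, with a root mean square difference of 0.0885.

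Other genes of these pathways were taken from fixed lists. Among further members of the same families, Stat5b, which transmits growth hormone and cytokine signals, was at 12.4 to 15.85 FPKM over all libraries, and Irf4 and Stat4 did not exceed 0.04.

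For the lists that follow, 49.1% of all tested genes had a higher mean with pEGFP-N1 and 56.9% with BX795 (median log2 fold change −0.00 and 0.03), and 4.69% and 13.8% had an unadjusted p under 0.05. Of 11 tested ISGF3 targets, none passed the adjusted threshold by limma with pEGFP-N1 or with BX795. Ifit1, Ifit3, Rsad2, Usp18 and Ifih1 were tested only because the interferon-high libraries carried them past the filter, which by itself favours a higher mean with pEGFP-N1. The other 6 all passed unadjusted with pEGFP-N1 and had higher means, with a median log2 fold change of 2.43, while with BX795 none of the 6 passed unadjusted, 3 had higher means and the median was 0.02. Oasl1, an antiviral protein of the oligoadenylate synthetase family, was at 208 to 214 FPKM in the interferon-high libraries and at 0.74 to 5.08 in the other 9. Ifit1, an antiviral RNA-binding protein, was at 92.64 to 96.67 and at 0 to 0.57.

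Of 11 tested genes known as IRF1 targets, Tapbp was called higher with pEGFP-N1 (0.93, limma adjusted p = 0.00600) and with BX795 (0.76, limma adjusted p = 0.0109). No gene was called with pEGFP-N1 when mock replicate 1 or 3 or pEGFP-N1 replicate 1 or 3 was left out. None was called with BX795 without any 1 mock library or without BX795 replicate 2, so both Tapbp calls were lost there. Gbp3, Cd274 and Igtp of this list were tested only through the interferon-high libraries. Of the other 8, 7 had higher means with pEGFP-N1 and 8 with BX795, with medians of 0.29 and 0.43, and 5 passed unadjusted in each comparison. Of 8 genes of NF-κB factors and targets, Ccl2, a monocyte-attracting chemokine, was called higher in both (1.17, limma adjusted p = 0.0128, and 1.08, limma adjusted p = 0.0119). Its calls were lost with the same libraries left out as those of Tapbp. All 8 had higher means in both comparisons, with medians of 0.52 after plasmid and 1.09 after BX795. Unadjusted, 5 of the 8 passed after plasmid and 8 after BX795. Ccl2 was at 341 to 376 FPKM in mock and at 668 to 988 in the other 9 libraries, so like Irf1 and Tapbp it was higher in every library outside mock. Whether NF-κB had a part in the Irf1 levels was not tested.

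Of 8 tested STAT3 targets, none was called by limma with pEGFP-N1 (1 at an unadjusted p under 0.05, against 4.69% of genes) or with BX795 (4, against 13.8%), and 5 had higher means in each comparison (49.1% and 56.9% of genes). Cebpd, a transcription factor of the acute-phase response, was at 5.27 to 5.78 FPKM in mock, 6.69 to 9.44 in the interferon-high libraries and 2.88 to 4.17 in the other 6. Bcl6, a transcriptional repressor, ran the other way, at 4.24 to 4.75, 3.29 to 3.34 and 5.62 to 8.25. No list member was called among 6 partners and cofactors, 3 ligands, 11 receptors and kinases and 7 negative regulators tested by limma. At an unadjusted p under 0.05 these lists held 1, 1, 2 and 0 genes with pEGFP-N1 and 2, 2, 4 and 1 with BX795, beside 4.69% and 13.8% of all genes. In those lists the widest ranges belonged to Crebbp (3.19 to 3.91 FPKM, and 6.13 in BX795 plus pEGFP-N1 replicate 3 alone) and Irf2bpl (17.53 to 27.93), coactivator and IRF2-binding proteins, to Lif and Il6 (0.41 to 2.44), to the cytokine receptor chains Il6st (15.83 to 23.5, and 33.77 in that same library) and Osmr (14.17 to 27.87), and to Usp18 (0.14 to 3.93) and Socs1 (3.44 to 10.56), which damp interferon receptor signaling. Usp18 was at 3.47 to 3.93 FPKM in the interferon-high libraries and at most at 0.62 in the other 9.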

How the data were processed

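RNA was sequenced on the BGISEQ-500. Per the study's methods and the submitters' processing notes, the authors aligned reads to GRCm38.p5 by Bowtie2 2.2.5 (at most 200 alignments kept for a read), and RSEM turned the alignments into a gene-level FPKM. The deposited table holds FPKM for 17571 genes in 12 libraries, with no counts, so depth is unknown. RSEM was run with default parameters, which do not use strand.

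Symbols were matched through RefSeq for 17450 genes. FPKM was taken as log2(FPKM + 1). Genes at 1 FPKM or more in at least 3 libraries (10412, among them 6 of the 8 members) were fitted with limma 3.58.1 in R 4.3.3 (4 group means over 12 libraries, empirical Bayes with a trend, Benjamini-Hochberg over all genes tested, call at an adjusted p under 0.05), which was tested on simulated data. The mean log2(FPKM + 1) of each member was also compared between 2 groups by a two-sided exact permutation test, 3 libraries against 3. Alternatives were another pseudocount (0.1), no filter, quantile normalization, rescaling to TPM, a fit of the compared groups alone, a block for replicate number, the thresholds of the study and leaving out each library. Same-numbered libraries deviated together (correlation over 0.1) in all 3 pairs of no 2 groups, so the numbers were not taken as pairs. No 2 libraries held identical values.

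The members, gene lists and motifs were chosen with earlier results of these data known. From each list the text names the genes called for pEGFP-N1 minus mock (at most 3), or the 2 with the widest range where none was called. Other genes are named for a result that turns on them. Some genes that these rules take are not reported here. Gene coordinates are from GENCODE M21 on GRCm38 and promoters from RefSeq on GRCm38.p6. Python 3.11.15 was used for the rest.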

Additional observations from a re-analysis of the deposited data

How the results depend on the processing

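The call of Irf1 for pEGFP-N1 minus mock (1 member called) was lost with no filter on low values (0 called, limma adjusted p = 0.0702 for Irf1), with only the groups compared in the fit (0 called, limma adjusted p = 0.148) and under the thresholds of the study's methods, an adjusted p of 0.001 and a log2 fold change of 2 (0 called). Leaving out 1 library each gave 0 to 1 called. The log2 fold change of Irf1 ran from 0.85 to 1.01 over the libraries left out. For BX795 minus mock, no member was called except 4 with only the groups compared. With the replicate number as a block 1 member was called for pEGFP-N1 minus mock, as without it, and no call on a member changed in the other comparisons.

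With 1 library left out, directions turned in these ranges. For BX795 plus pEGFP-N1 minus pEGFP-N1, Irf2 ran from −0.12 to 0.0450. For BX795 plus pEGFP-N1 minus BX795, Irf1 ran from −0.0664 to 0.17, Irf7 from −0.16 to 0.42, Stat2 from −0.0234 to 0.68 and Stat3 from −0.0061 to 0.12, each turning without BX795 plus pEGFP-N1 replicate 1. The difference between plasmid effects ran from −0.38 to 0.26 for Irf9. None of these was called in the first place. Apart from leaving out libraries, no alternative turned the direction of a member.

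Over all genes tested, the count called for pEGFP-N1 minus mock was 7, with 2 under no filter, 4 with only the groups compared and 0 to 17 over the libraries left out, 17 without pEGFP-N1 replicate 2. For BX795 minus mock it was 7, with 2150 when only these groups were fitted and 0 to 3 over the libraries left out. With no filter, 2 genes were called for BX795 plus pEGFP-N1 minus pEGFP-N1, and 1 each for BX795 plus pEGFP-N1 minus BX795 and for the difference between plasmid effects, against 0 with the filter. FPKM holds no depth, so what counting error adds to the low members (Irf5, Irf7 and Irf8) cannot be given.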
